A study of Mus musculus with 20 samples.

Results

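The genes described are 9 core pluripotency genes of the mouse, namely Pou5f1, Sox2, Nanog, Sall4, Utf1, Dppa2, Dppa4, L1td1 and Lin28a. They were looked up by symbol, with no threshold on a measured value. All 9 were found among the 27998 genes of each single-cell table and among the 54146 gene rows of the bulk table. Their RNA was followed in embryonic stem cells (ES cells) through 3 pooled single-cell experiments and 13 bulk libraries.

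Every cell came from a male 129P2/OlaHsd ES cell line, grown with serum, LIF, GSK3 inhibitor XV and UO126 until these were withdrawn for differentiation. Treatments were marked by barcodelets, short transfected RNAs that label the treatment of a cell inside a pooled library. In the mesendoderm experiment a well was marked by a combination of barcodelets. The germ layer experiment held 32 conditions, all combinations of 5 pathways, each set to plus or minus for 24 h. Plus stood for retinoic acid (RA), GSK3 inhibitor XV (Wnt), ActivinA (Tgfb), Bmp4 (Bmp) and Fgf2 (Fgf), and minus for CD 2665, IWR1, A8301, Dorsomorphin and UO126 in the same order. Minus is therefore an inhibitor and not the mere absence of a factor. In the mesendoderm experiment, cells first spent 24 h with Activin A, Fgf2 and GSK3 inhibitor XV as activators and with CD 2665 and Dorsomorphin as inhibitors, and 7 pathways, with Notch and Shh added, were then combined across wells. The mixed experiment combined the 5 pathways in wells with an undirected start or that mesendoderm start, and kept 8 control wells per start with no combinatorial treatment. Which compounds set the levels of these latter designs was not found in the tables analysed. Bulk RNA was from cells at 24 h and 72 h after barcodelet transfection, untransfected cells, and cells sorted by the labels as Foxa2GFPminus, Foxa2GFPplus and Tdgf1GFPplus.

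Pou5f1 (also called Oct4), Sox2 and Nanog are transcription factors that bind together at enhancers of ES cells and maintain their own expression and that of many other pluripotency genes. Pou5f1 and Sox2 can bind side by side on a joined octamer and Sox motif. Sall4 is a zinc finger factor of the same network, Utf1 a chromatin-bound protein of undifferentiated cells, and Dppa2 and Dppa4 partner proteins that bind DNA through SAP domains. L1td1 and Lin28a bind RNA, and Lin28a blocks the maturation of let-7 microRNAs. Naive cells resemble the epiblast before implantation, primed cells the epiblast after it, and Sox2 also persists in neural tissue.

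Of the cells in the deposited tables, 4350 of 8421 were assigned to a germ layer condition, 2899 of 12781 to a mesendoderm well and 4869 of 5944 to a mixed well. The germ layer conditions held 70 to 230 cells each, the mesendoderm wells used 5 to 29 and the mixed wells 5 to 97. The median cell had 15314 UMIs (molecules counted) for the germ layer, 11700 for the mesendoderm and 19105 for the mixed design. The experiments shared 151, 64 and 111 cell barcodes pair by pair. The labels do not say whether wells or libraries were separate cultures, so p-values measure the spread between wells, conditions or libraries. A level below is in CPM (the UMIs of a gene in a population, scaled to one library size for all), and in such sums fewer cells that express a gene and less RNA per cell cannot be told apart. Effects are log2 changes from minus to plus with standard errors, fitted across all tested genes with edgeR's quasi-likelihood test, and "called" means a Benjamini-Hochberg adjusted p under 0.05.

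On the mouse build GRCm38 the 9 genes lie on 7 chromosomes, and Dppa4 (chr16:48283733-48294237) and Dppa2 (chr16:48303908-48319723) are neighbours. Pou5f1 (chr17:35506018-35510772, plus strand) shares 317 exonic bases with the antisense gene Gm19553, Lin28a (chr4:134003330-134018841, minus strand) 234 with Gm13061 and Sall4 (chr2:168748332-168767943, minus strand) 526 with Gm14261. No source used here says whether strand was used in counting. In the bulk libraries Gm19553 had 0 reads, and Gm13061 and Gm14261 had at most 1.72 RPM (bulk reads of a gene relative to the read total of its library alone). Sox2 (chr3:34650405-34652461, plus strand) lies inside Sox2ot without a shared exonic base. Nanog is at chr6:122707489-122714633, Utf1 at chr7:139943789-139945112 and L1td1 at chr4:98726734-98738480, all on the plus strand.

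Upstream sequence is shown for the genes of the 9 whose RNA moved most with RA (Pou5f1) and with Tgfb (Nanog) in the germ layer conditions. RefSeq promoters on GRCm38.p6 were found for 6 of the 9 genes, and Dppa2, Dppa4 and Sall4 are only named. Capitals in the first sequence, chr17:35505782-35506017 on the plus strand, mark AGGTCA, one copy of the hexamer that nuclear receptors such as RA receptors bind. Capitals in the second, chr6:122707239-122707488 on the plus strand, mark a match to TTTGCATNACAANG, the joined octamer and Sox motif. Both end at the base before the annotated start.
Pou5f1: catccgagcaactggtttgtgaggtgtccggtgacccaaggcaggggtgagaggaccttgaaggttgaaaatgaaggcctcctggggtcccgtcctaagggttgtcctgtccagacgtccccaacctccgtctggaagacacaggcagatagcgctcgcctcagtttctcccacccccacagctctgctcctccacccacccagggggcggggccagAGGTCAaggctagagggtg
Nanog: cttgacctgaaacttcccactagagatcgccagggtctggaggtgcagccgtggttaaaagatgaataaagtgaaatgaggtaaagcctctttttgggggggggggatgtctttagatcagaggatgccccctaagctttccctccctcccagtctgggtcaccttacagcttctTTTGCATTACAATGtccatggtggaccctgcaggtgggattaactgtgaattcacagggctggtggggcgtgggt
The hexamer, read on both strands as AGGTCA or TGACCT, was in 16.3% of 32851 mouse promoters of 300 bases, and as TGACCT it was also in a promoter of Sox2, which was not called for RA in the germ layer experiment, and, in lower case, near the 5′ end of the Nanog sequence above. The joined motif was in 3 promoters (0.00913%), and 2 of these are alternative starts of Nanog. The octamer alone, TTTGCAT or ATGCAAA, which overlaps the joined motif, was in 4.63% of promoters and in 1 of Sox2 as well. A match describes letters and says nothing of binding in these cells.

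In the germ layer conditions, the 9 genes did not move as a block. Bmp lowered 8 of them, all except Sall4. RA lowered 6 and Wnt lowered 6, while Tgfb raised 6 and lowered Lin28a, and Fgf raised 5. Of all 10614 genes tested, edgeR called 43.1% for Bmp (21.5% lower), 27.7% for RA (13.6% lower) and 23.9% for Wnt (11.9% lower). For Tgfb 7.02% were called (4.07% higher and 2.95% lower) and for Fgf 7.93% (4.58% higher). The median log2 effect over the 9 genes was -0.45 for Bmp, -0.32 for RA, -0.48 for Wnt, 0.68 for Tgfb and 0.51 for Fgf, where the medians over all genes lay between -0.0087 and 0.0037. Counted per cell in place of per library, Bmp lowered 5 of the 9 and RA 7, and the medians over all genes became 0.13 for Bmp and -0.11 for RA. The share of called genes that were higher then went from 50.1% to 80.5% for Bmp, from 50.8% to 20.5% for RA, from 50.4% to 28.1% for Wnt, from 58.0% to 28.5% for Tgfb and from 57.7% to 91.9% for Fgf. The median of the 9 kept its sign for each pathway.

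**Figure D1:**
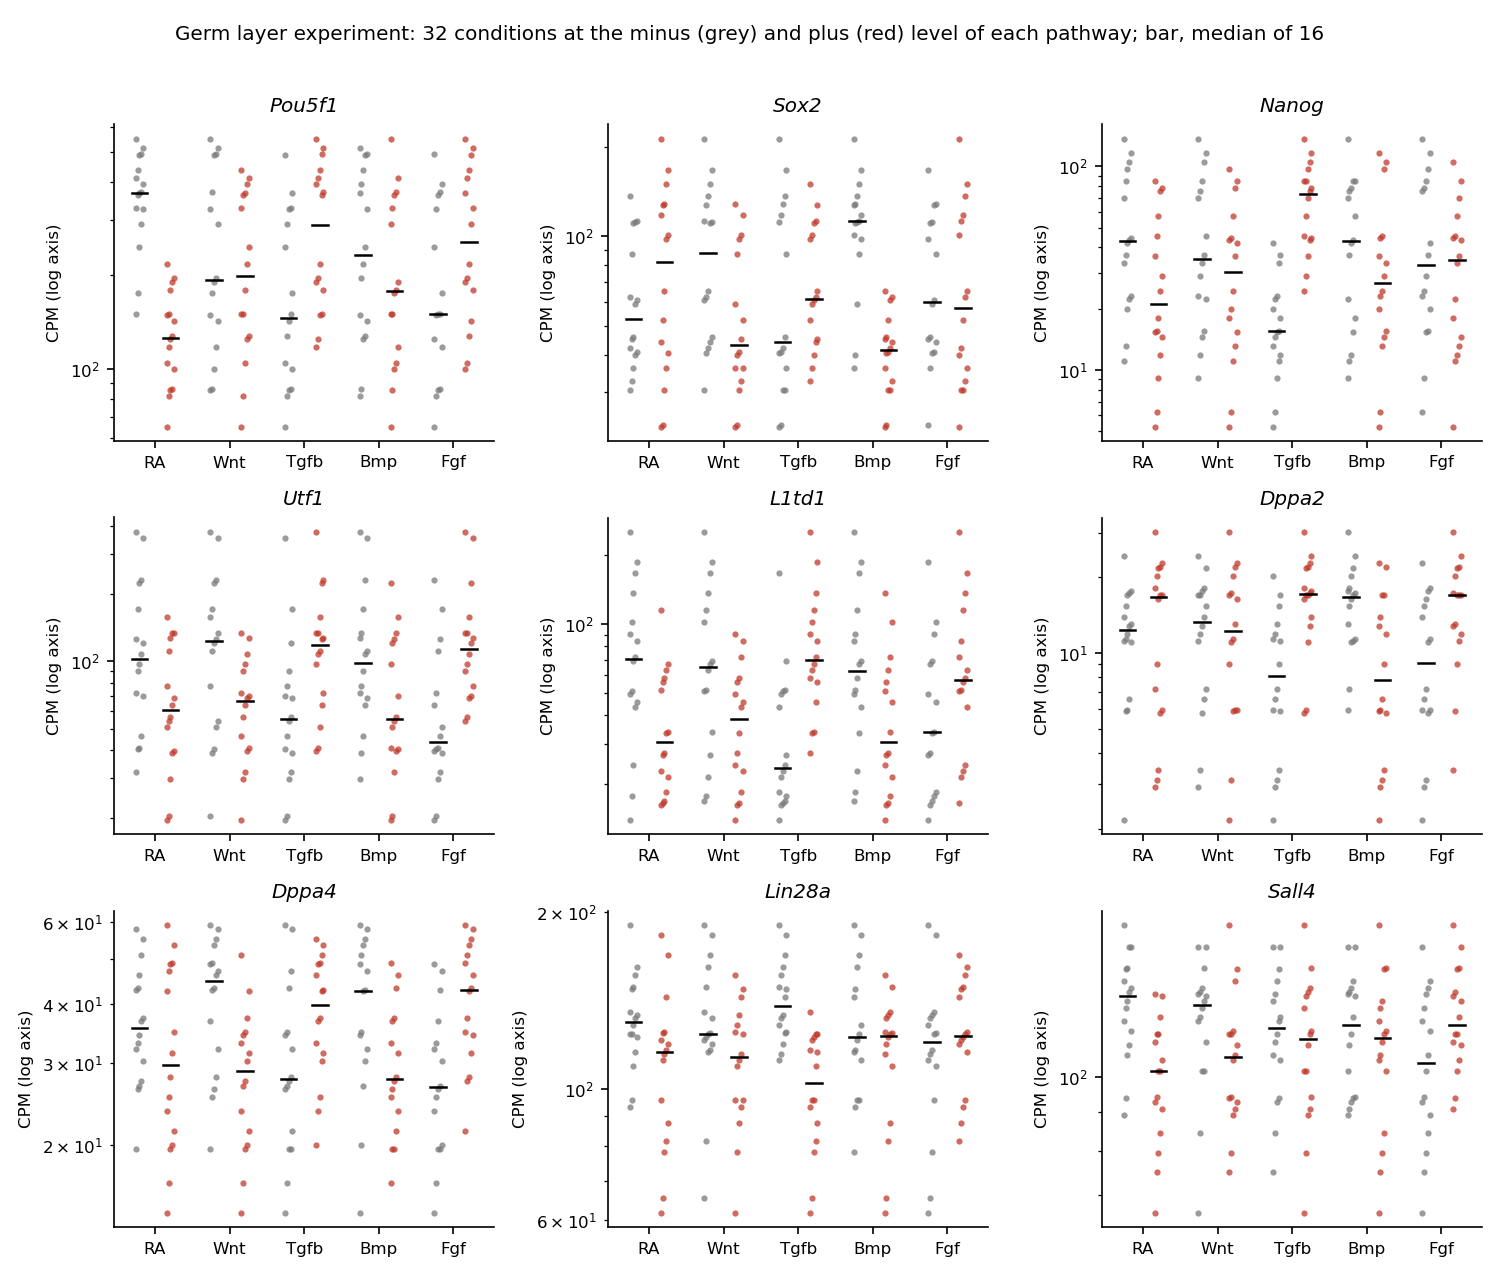
Level of each of the 9 genes in the 32 germ layer conditions (CPM, log axis), drawn once per pathway with minus in grey and plus in red and a bar at the median of 16 conditions. Nanog shows the widest gap by Tgfb, with medians of 73 and 15.5, and Pou5f1 by RA, with medians of 126 and 369.

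Pou5f1 ranged over the 32 conditions from 65.1 to 550 CPM, with a median of 193. Under RA plus the 16 conditions lay at 65.1, 126 and 217 (lowest, median, highest), and under RA minus at 150, 369 and 550. The groups overlapped only between 150 and 217, and the effect was -1.49 ± 0.07 (edgeR adjusted p = 6.95e-18). Tgfb and Fgf raised Pou5f1 by 0.68 ± 0.07 (edgeR adjusted p = 8.12e-09) and 0.51 ± 0.07 (6.31e-06), and Bmp lowered it by -0.28 ± 0.07 (0.00136). Counting per cell in place of per library left the Bmp effect at -0.15 (adjusted p = 0.117). Wnt gave -0.14 (edgeR adjusted p = 0.138). The highest level, 1427 UMIs in 148 cells, was under RA minus, Wnt minus, Tgfb plus, Bmp plus and Fgf plus.

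Sox2 followed Bmp first. It lay at 23.0, 41.6 and 65.3 CPM under Bmp plus and at 36.3, 112 and 213 under Bmp minus. The overlap was confined to the range of 36.3 to 65.3, and the effect was -1.37 ± 0.15 (edgeR adjusted p = 2.8e-09). Wnt lowered Sox2 by -0.65 ± 0.14 (0.000738). RA gave 0.34 ± 0.14 (edgeR adjusted p = 0.0766), with RA plus at 23.0, 81.8 and 213 and RA minus at 30.5, 52.7 and 136, ranges that overlap, and the estimate has the opposite sign to that of Pou5f1. Tgfb and Fgf gave 0.04 and -0.01. Over the 32 conditions the log2 levels of Pou5f1 and Sox2 had a Pearson r of 0.05, and over the 62 treated undirected wells of the mixed experiment 0.51. These are descriptions over populations that share depth and medium.

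Nanog had the largest rise with Tgfb among the 9 genes. It lay at 24.5, 73 and 137 CPM under Tgfb plus and at 5.28, 15.5 and 42.2 under Tgfb minus, with overlap between 24.5 and 42.2. The effect was 1.98 ± 0.17 (edgeR adjusted p = 2.03e-10). RA lowered Nanog by -0.80 ± 0.17 (0.000379). Wnt and Bmp lowered it by -0.48 ± 0.17 (edgeR adjusted p = 0.0289) and -0.41 ± 0.17 (0.0464). These 2 calls lie near the threshold: DESeq2 gave an adjusted p of 0.0612 for Wnt, and Bmp missed the threshold under 4 alternatives with adjusted p of 0.0507 to 0.166. Its lowest condition held 17 Nanog UMIs in 179 cells. Sall4 moved least of the 4 factors. It lay at 66.2, 102 and 128 under RA plus and at 89, 128 and 158 under RA minus, ranges that overlap widely, and RA was its only called effect (-0.32 ± 0.07, edgeR adjusted p = 0.000824).

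The chromatin genes Utf1, Dppa2 and Dppa4 shared a rise with Tgfb and Fgf. Utf1 lay at 54.1, 114 and 377 CPM under Fgf plus and at 19.6, 43.8 and 229 under Fgf minus, with wide overlap, and rose by 1.09 ± 0.16 (edgeR adjusted p = 2.51e-05). Utf1 was called for all 5 pathways: Tgfb raised it by 0.84 ± 0.16, and RA, Wnt and Bmp lowered it by -0.79 ± 0.16, -0.89 ± 0.16 and -0.66 ± 0.16, with edgeR adjusted p from 8.42e-05 to 0.00112. Dppa2, the least counted of the genes, lay at 5.78, 17.2 and 30.2 under Tgfb plus and at 2.17, 8.10 and 20.2 under Tgfb minus, again overlapping. Its lowest condition held 5 UMIs. It rose by 0.96 ± 0.18 with Tgfb (edgeR adjusted p = 0.000403) and by 0.66 ± 0.18 with Fgf (0.0179), and fell by 0.72 with Bmp (0.00121). Dppa4 rose by 0.53 ± 0.09 with Fgf (edgeR adjusted p = 0.000149) and by 0.33 ± 0.09 with Tgfb (0.0152), and fell by 0.54 with Wnt (1.65e-05) and by 0.45 with Bmp (9.5e-05). The Tgfb effect of Dppa4 had an adjusted p of 0.0542 when counted per cell. Neither partner was called for RA (Dppa2 0.20, Dppa4 -0.18).

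The RNA-binding genes L1td1 and Lin28a went opposite ways with Tgfb. L1td1 lay at 27.2, 69.5 and 254 CPM under Tgfb plus and at 13.9, 23.6 and 168 under Tgfb minus. The ranges overlap, and the effect was 1.27 ± 0.13 (edgeR adjusted p = 1.46e-08). L1td1 was also called for all 5 pathways, with -1.05 ± 0.13 for RA, -0.92 ± 0.13 for Wnt, -0.81 ± 0.13 for Bmp and 0.64 ± 0.13 for Fgf. Lin28a lay at 61.6, 103 and 135 under Tgfb plus and at 112, 139 and 190 under Tgfb minus, with overlap between 112 and 135. Its Tgfb effect was -0.50 ± 0.07 (edgeR adjusted p = 5.39e-06), and RA, Wnt and Bmp gave -0.26 ± 0.07, -0.21 ± 0.07 and -0.18 ± 0.07, all called. Counted per cell, the Bmp effect of Lin28a was -0.05 (adjusted p = 0.622). Lin28a was highest, at 190, where all 5 pathways were minus.

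**Figure D2:**
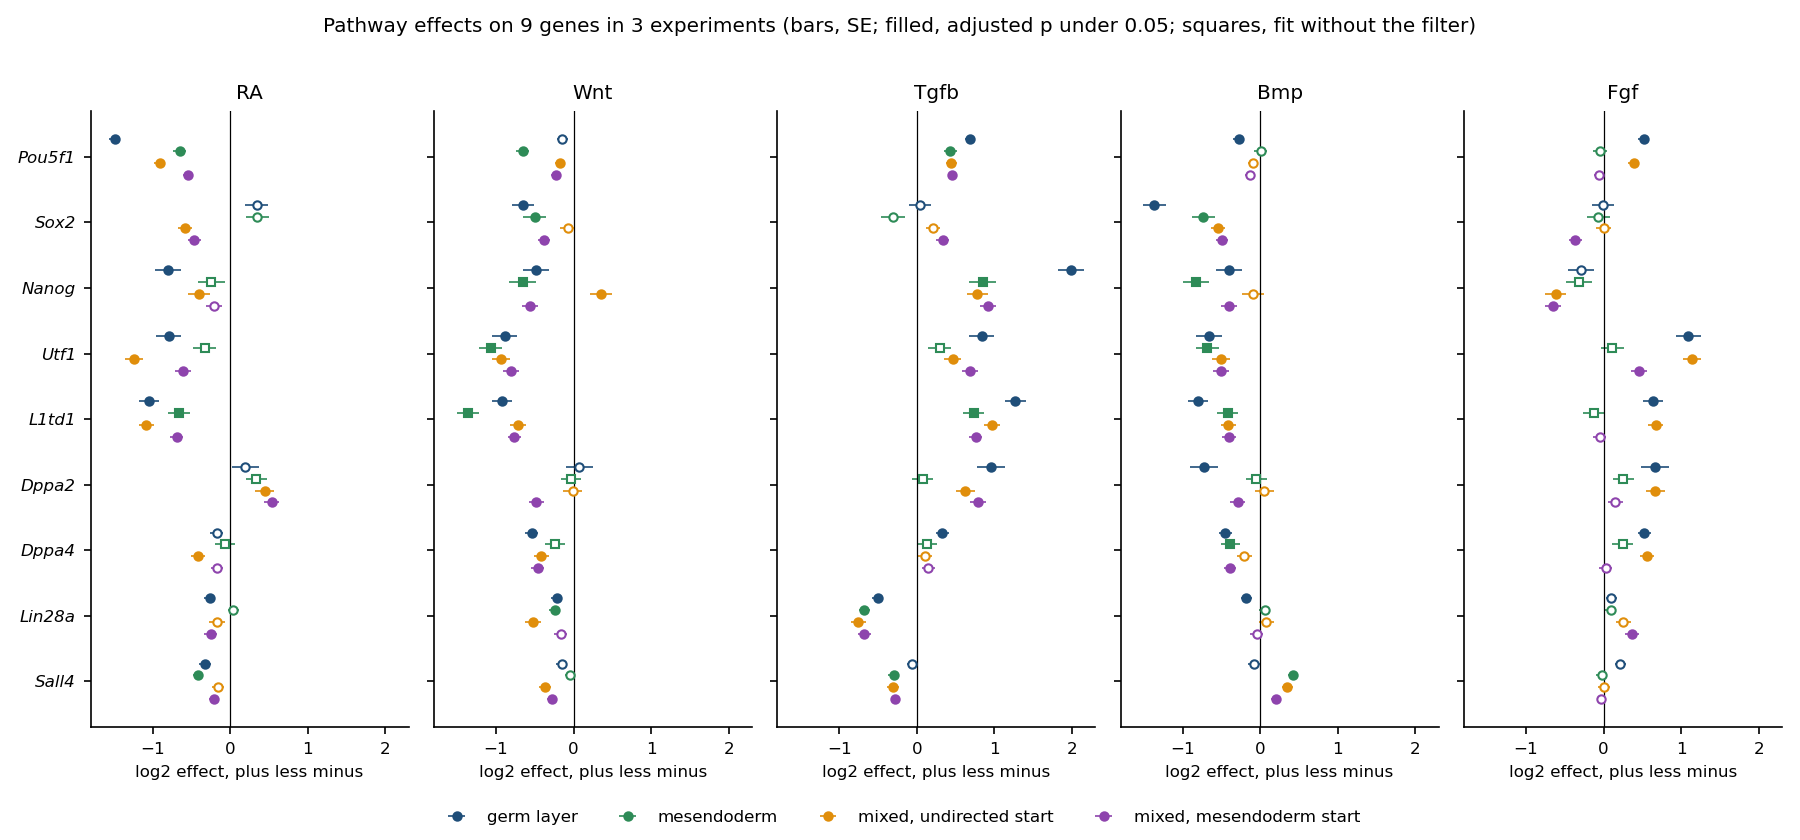
Log2 effect of plus against minus with its standard error for the 9 genes, one panel per pathway, in the germ layer, mesendoderm and mixed experiments (undirected and mesendoderm start). Filled symbols have an edgeR adjusted p under 0.05 and squares come from the mesendoderm fit without a filter on low counts; Nanog and L1td1 stand to the right for Tgfb, and Lin28a to the left, in each experiment.

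One condition gathered the low values. With RA plus, Wnt plus, Tgfb minus, Bmp plus and Fgf minus, Pou5f1, Sox2, Nanog, Utf1, L1td1, Dppa4 and Sall4 were each at 1 of their 2 lowest levels. Pou5f1 and Utf1 had their lowest level there, at 65.1 CPM (146 UMIs in 140 cells) and 19.6. Utf1 and L1td1 shared their highest condition, RA minus, Wnt minus, Tgfb plus, Bmp minus and Fgf plus, at 377 and 254. Their levels had a Pearson r of 0.88 over the 32 conditions, the closest of the pairs described here. Pou5f1 and L1td1 had 0.80, Lin28a and Sall4 0.66, and Nanog and Lin28a -0.29.

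Pathways also acted in pairs on these genes in the germ layer conditions, where an interaction compares what one pathway did with the other at plus and at minus (plus less minus). For Sox2 the pair was RA and Bmp. It lay at 23.0, 38.4 and 65.3 CPM with both plus, at 98.2, 128 and 213 with RA alone plus, at 30.5, 43.8 and 62.5 with Bmp alone plus and at 36.3, 99.2 and 136 with neither. Among the RA plus conditions, the Bmp groups of 8 did not overlap. The interaction was -0.94 ± 0.15 (edgeR adjusted p = 0.000271), where 3.01% of 11410 genes were called for this pair (1.4% lower). Nanog, Lin28a and Sall4 had called interactions of the same sign (-1.03 ± 0.21, -0.41 ± 0.09 and -0.33 ± 0.09, edgeR adjusted p = 0.00344, 0.005 and 0.0396). With limma the adjusted p was 0.0861 for Nanog and 0.0529 for Sall4.

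For Utf1 the pair was RA and Wnt. Its level was 40.7, 197 and 377 with both minus, 32.2, 70.9 and 107 with Wnt alone plus, 20.5, 65.9 and 157 with RA alone plus, and 19.6, 60.3 and 134 with both plus. The medians of the 3 groups with either pathway plus lay within 60.3 to 70.9, and the conditions of all 4 groups overlapped. The interaction was 1.23 ± 0.14 (edgeR adjusted p = 3.11e-06), with 3.63% of genes called, and Dppa2 was called as well (0.96 ± 0.28, 0.0469). Tgfb and Bmp interacted for Sox2 (0.85 ± 0.15, edgeR adjusted p = 0.00112, 3.01% called), and Wnt and Bmp for Utf1, Lin28a and Sall4 (0.48 ± 0.14, 0.37 ± 0.09 and 0.38 ± 0.09, 3.87% called, 2.01% higher). Without cells of more than 2 times the median UMIs, those of Lin28a (0.27, adjusted p = 0.136) and Sall4 (0.29, 0.0667) were not called. The 2 other calls, Utf1 for RA and Tgfb (0.67 ± 0.14, edgeR adjusted p = 0.0264, 0.175% called) and Nanog for RA and Fgf (0.93 ± 0.21, 0.0346, 0.412% called), had an adjusted p of 0.104 and 0.143 with limma.

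**Figure D3:**
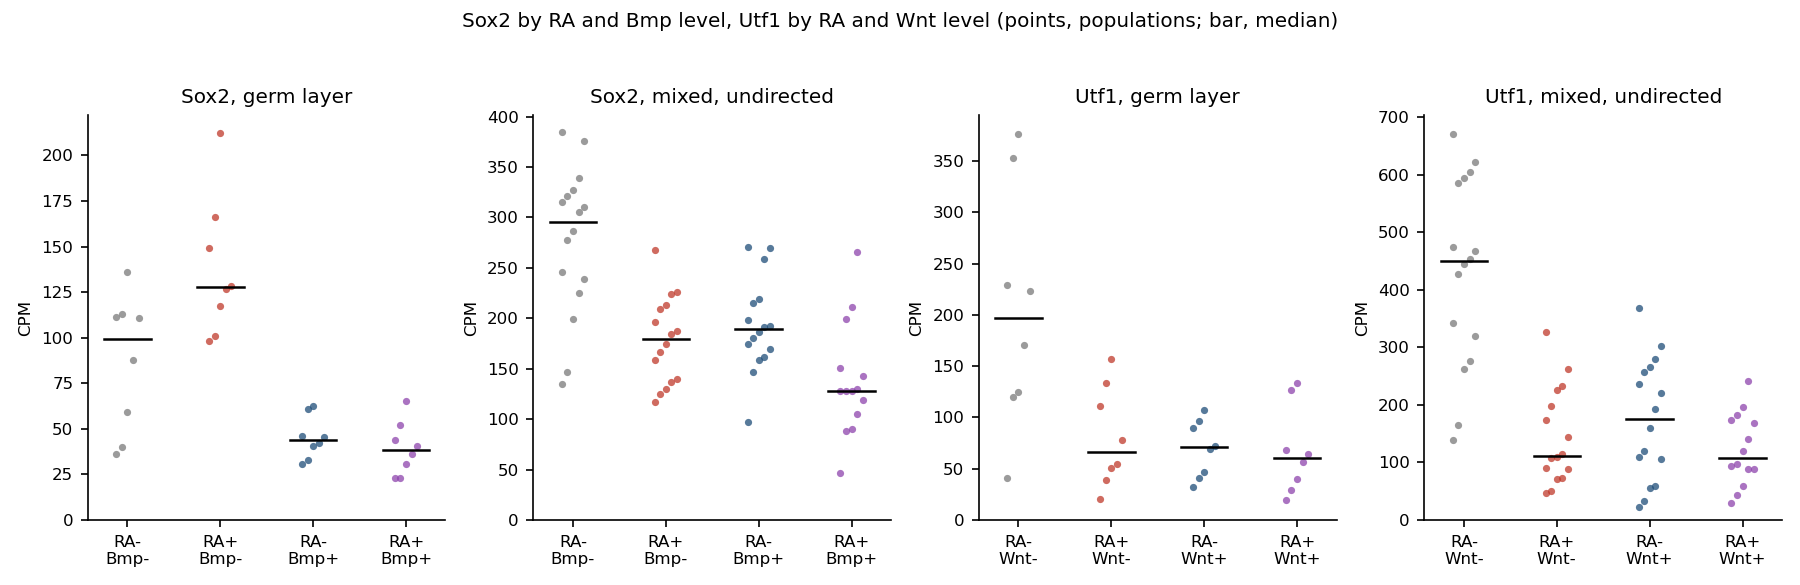
Levels (CPM, linear axis from 0) of Sox2 by RA and Bmp and of Utf1 by RA and Wnt, in germ layer conditions and in mixed wells with an undirected start, with bars at the medians. Sox2 with RA plus and Bmp minus has a germ layer median of 128 against 38.4 with both plus, and Utf1 with RA and Wnt minus stands above the other groups in both experiments, with medians of 197 and 450.

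Other genes of the pluripotent state also moved in these conditions. Of 14 tested genes of this kind (among them Tdgf1, Zscan10 and Dnmt3l), 11 fell and 1 rose with Bmp, 9 fell and 2 rose with RA, and 8 fell with Wnt, with median log2 effects of -0.47, -0.36 and -0.32. Tdgf1, a co-receptor for Nodal, fell by 2.34 with RA and rose by 2.33 with Tgfb. Dnmt3l fell by 0.96 with Bmp. Of 10 tested genes of the naive network, 6 fell and 2 rose with Bmp, and Tbx3 rose by 2.99. Wnt raised 3 of the 10 and lowered none, while it lowered 6 of 10 primed genes and raised 1. Over all 10614 genes tested, 43.1% were called for Bmp (21.5% lower), 27.7% for RA (13.6% lower) and 23.9% for Wnt (11.9% lower). The 3 of 10 naive genes called for Wnt lie near the share for that pathway.

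Markers of differentiated cells moved with Bmp, RA and Tgfb, for which 43.1%, 27.7% and 7.02% of all genes were called. Under Bmp plus, 6 of 6 surface ectoderm markers rose, and their summed level lay at 1292 to 2276 CPM against 420 to 884 under Bmp minus, with no overlap. Of 5 tested trophoblast markers 4 rose, with summed levels of 124 to 378 against 50.7 to 313, and of 6 neural markers 5 fell, with 34.7 to 81.3 against 77.6 to 241. Under RA plus all 6 tested streak markers fell and 4 of 6 neural markers rose, and all 6 streak markers rose with Tgfb. Summed germ cell markers (Ddx4, Dazl, Stra8, Nanos3 and Prdm1) lay at 25.6 to 90.3 under RA plus and at 6.28 to 20.1 under RA minus, with no overlap. Of these genes 2 were tested and 1 was called higher, and such a sum can rest on 1 gene. Summed fibroblast or feeder markers stayed between 5.04 and 60.1. RA plus conditions held 2609 cells and RA minus 1741. The part of these cells and of depth in the levels of the 9 genes was not tested.

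After the mesendoderm start, the 300 wells used of 383 held few cells, and only Pou5f1, Sox2, Lin28a and Sall4 passed the filter on low counts. Pou5f1 lay at 0, 59 and 273 CPM over the wells. Medians by RA were 45.7 with plus and 73.8 with minus, and by Wnt 45.7 and 76.7, with almost complete overlap of the wells. It fell by 0.65 with RA (edgeR adjusted p = 1.82e-11; 21.9% of 2328 genes called) and by 0.66 with Wnt (4.34e-12; 39.6% called, 19.6% lower), and rose by 0.43 ± 0.09 with Tgfb (2.92e-05; 10.1% called). Sox2 fell by 0.73 with Bmp (1.38e-05; 29.3% called) and by 0.50 with Wnt (0.00297). Lin28a fell by 0.68 with Tgfb (edgeR adjusted p = 3.18e-15), from a median of 78.2 to 48.7, and by 0.24 with Wnt (0.00235). With only wells of 10 or more cells, the Bmp effect of Sox2 was not called (-0.68, edgeR adjusted p = 0.0551). The Wnt effect of Lin28a was not called there either (-0.23, edgeR adjusted p = 0.0981). Sall4 had a median of 106 with Bmp plus and 74.6 with Bmp minus, overlapping, and rose by 0.42 ± 0.07 (1.88e-08). Sall4 fell by 0.42 with RA (2.49e-08) and by 0.30 with Tgfb (0.000461). Markers of other cells moved with these pathways too, all with overlap between wells. Median summed streak markers were 198 with RA plus and 524 with RA minus, and germ cell markers 71.5 and 18.9. Surface ectoderm markers were 273 with Wnt plus and 616 with Wnt minus, and streak markers 408 and 190. Neural markers were 20.2 with Bmp plus and 50.9 with Bmp minus, and trophoblast markers 188 and 106. Their part in the levels of the 9 genes was not tested. None of the 4 was called for Fgf, Notch or Shh, for which edgeR called 9.28%, 1.16% and 0.043% of genes.

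Without the filter all 9 genes could be fitted, over 18974 genes, and the remaining 5 then showed the directions of the germ layer conditions where they were called. L1td1 fell by 1.36 with Wnt (edgeR adjusted p = 9.4e-17; 13.9% of genes called, 8.27% lower), from a median of 37.4 to 10.8 CPM, and Utf1 and Nanog fell by 1.07 (5.02e-10) and 0.66 (0.00218). Tgfb raised Nanog by 0.85 ± 0.17 (9.63e-05; 2.8% called) and L1td1 by 0.73 ± 0.14 (2.34e-05). Bmp lowered Nanog, Utf1, L1td1 and Dppa4 (-0.83 ± 0.17, -0.68 ± 0.15, -0.42 ± 0.14 and -0.38 ± 0.13, edgeR adjusted p = 8.72e-05 to 0.0385; 7.6% called), and RA lowered L1td1 by 0.66 (0.000124; 7.27% called, 3.05% lower). Dppa2 had no called pathway effect among these 4. Of the pairs, edgeR called Tgfb with Bmp for Sox2 (1.33 ± 0.30, adjusted p = 0.00836, 0.487% of 3082 genes called) and RA with Bmp for Sall4 (-0.50 ± 0.13, 0.0172, 1.56% called). Neither was called when only wells of 10 or more cells were used.

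The control wells of the mixed experiment compare the 2 starts without any combinatorial treatment. Nanog lay at 132, 168 and 213 CPM in the 8 mesendoderm wells and at 57.1, 85.5 and 112 in the 8 undirected wells, with no overlap. It was higher after the mesendoderm start by 1.01 ± 0.19 (edgeR adjusted p = 3.53e-05; 8.57% of 8791 genes called). Utf1 went the opposite way, at 212, 251 and 265 against 345, 475 and 553, also with no overlap, by -0.93 ± 0.17 (2.21e-05). Lin28a was lower after the mesendoderm start, at 49.3, 73.6 and 82.9 against 72.1, 107 and 121 with some overlap, by -0.55 ± 0.15 (edgeR adjusted p = 0.00563, and 0.186 with limma). Pou5f1 (449, 492 and 531 against 508, 558 and 730) and Sox2 (283, 314 and 378 against 267, 321 and 396) were not called, at -0.25 and -0.05. Beside these, 7 of 14 tested naive genes were higher after the mesendoderm start and none lower, with Nr5a2, Tdh and Tfcp2l1 at 1.32, 1.01 and 1.00, and 8 of 10 primed genes were lower, with Pou3f1, Fgf5 and Otx2 at -2.79, -2.66 and -2.13. That start holds GSK3 inhibitor XV together with the other activators and the inhibitors listed for it above. The part of each agent in these differences was not tested.

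Combinatorial treatment lowered most of the 9 genes from either start. In 62 treated undirected wells Pou5f1 lay at 162, 371 and 855 CPM, Sox2 at 47, 189 and 384 and Utf1 at 22.7, 174 and 671, each overlapping its control wells. Against these controls 7 of 9 were lower (19.3% of genes called, 11% lower), Utf1 the most (-1.45 ± 0.13, edgeR adjusted p = 4.95e-19), with Sox2 at -0.80 ± 0.11 (2.61e-09). Nanog (-0.27, edgeR adjusted p = 0.28) and Dppa2 (-0.05, 0.874) were not called. From the mesendoderm start, where 64 treated wells had Nanog at 14.7, 74.2 and 228, 8 of 9 were lower (15.5% called, 8.5% lower). Nanog led there (-1.13 ± 0.13, edgeR adjusted p = 6.94e-13), and Lin28a was not called (-0.19, 0.244). The median effect of the 9 was -0.68 and -0.62. With library-total scaling 32.5% and 35.3% of the called genes were higher, against 43.0% and 45.2% with TMM, and the counts of the 9 were still 7 and 8 lower.

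**Figure D4:**
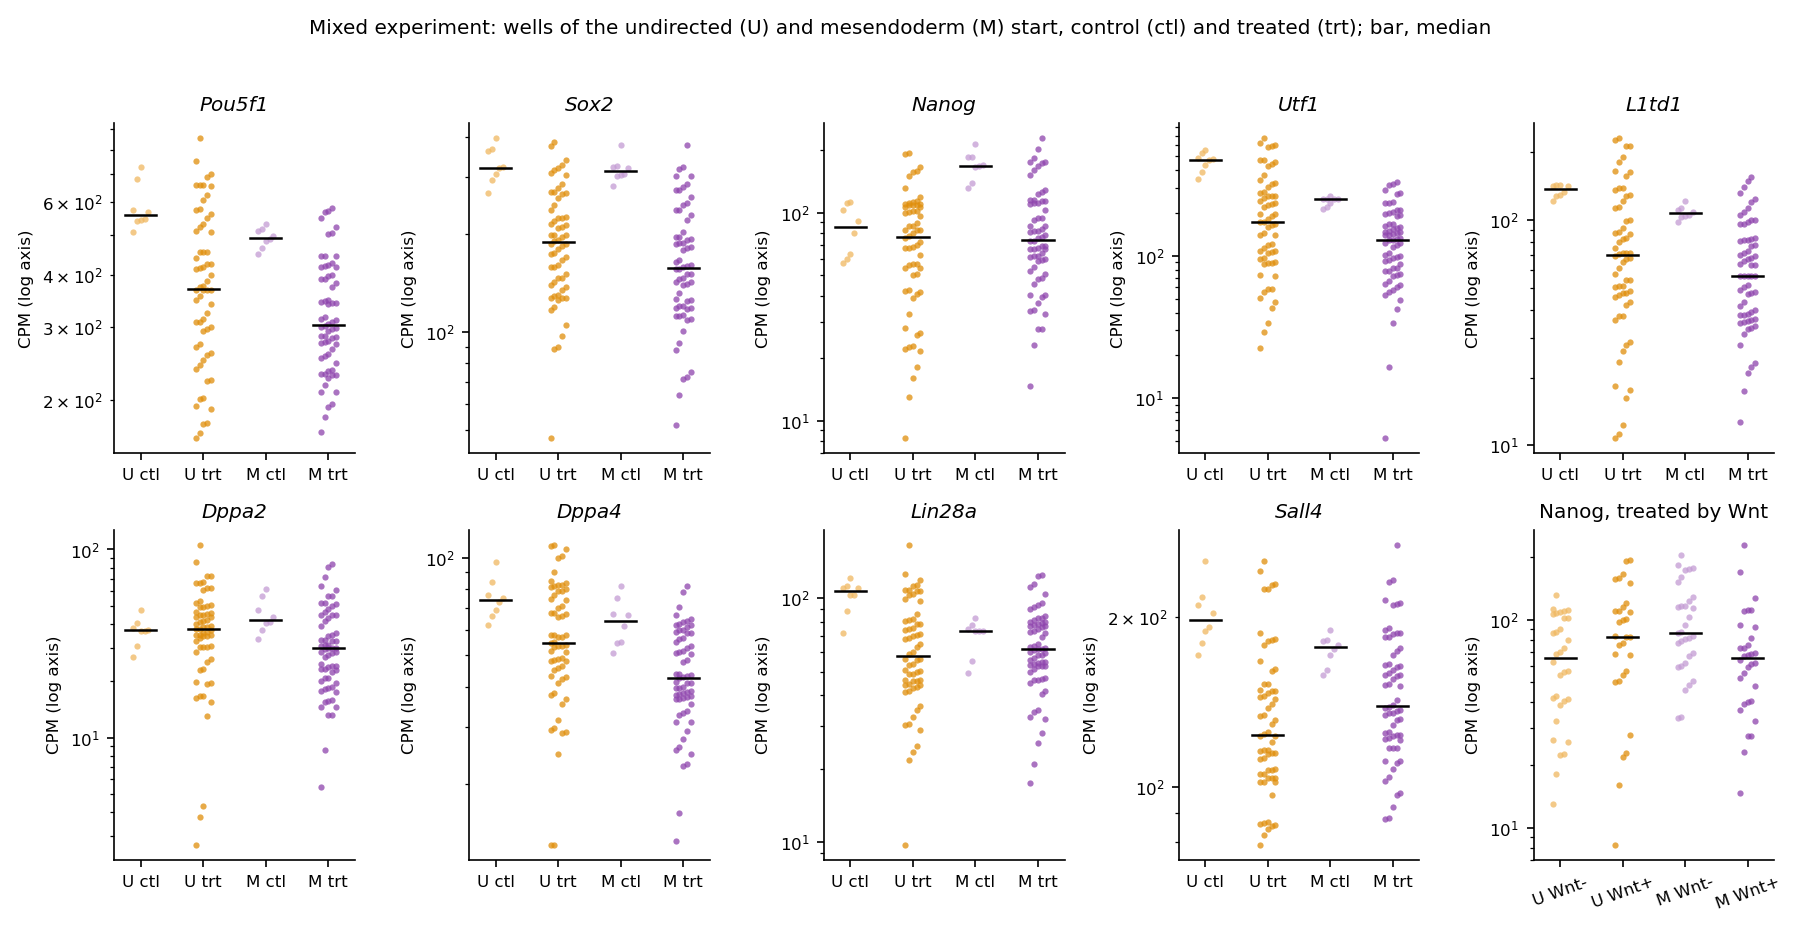
Levels per well (CPM, log axis) of the 9 genes in control and treated wells with an undirected (U) or mesendoderm (M) start, with bars at the medians; the last panel splits Nanog in treated wells by Wnt. Nanog in the 8 mesendoderm control wells (132 to 213) lies above the 8 undirected control wells (57.1 to 112), and Utf1 below.

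Within the treated undirected wells, RA lowered 6 of the 9 and raised Dppa2 (34.3% of genes called), and Wnt lowered 6 and raised Nanog (36.1% called). Pou5f1 fell by 0.91 with RA (edgeR adjusted p = 3.68e-25), Utf1 by 1.24 (2.35e-18) and L1td1 by 1.08 (2.15e-18), while Dppa2 rose by 0.44 ± 0.12 (0.00178). Sox2 fell with RA here, by 0.58 (6.65e-08). Tgfb raised 5 and lowered Lin28a (-0.75 ± 0.10, edgeR adjusted p = 1.57e-09) and Sall4 (-0.31 ± 0.07, 0.00273), where 4.14% of genes were called. Fgf raised 5, with Utf1 at 1.14 ± 0.12 (1.88e-14), and lowered Nanog by 0.62 (0.0004), where 13.3% were called. Bmp lowered Sox2, Utf1 and L1td1 (-0.55 ± 0.09, -0.50 ± 0.11 and -0.41 ± 0.10) and raised Sall4 by 0.35 ± 0.07 (edgeR adjusted p = 0.000458; 7.81% called). The median effects of the 9 were -0.41 for RA, -0.37 for Wnt, 0.45 for Tgfb, 0.39 for Fgf and -0.09 for Bmp.

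From the mesendoderm start, Wnt lowered 8 of the 9 and raised none (41.1% of genes called, 21.2% lower), and only Lin28a missed the threshold (-0.17, edgeR adjusted p = 0.102). RA lowered 6 and raised Dppa2 by 0.54 ± 0.10 (edgeR adjusted p = 5.69e-06, 30% called). Bmp lowered 6 and raised Sall4 by 0.21 ± 0.06 (edgeR adjusted p = 0.0154, 10.7% called). With limma the Bmp effects of Sall4, Nanog and Dppa2 were not called (adjusted p = 0.0536, 0.0764 and 0.136). That of Dppa2 was also lost with mesendoderm-start wells alone (edgeR adjusted p = 0.0549) and per cell (0.111). Tgfb raised 6, Sox2 among them (0.33 ± 0.08, edgeR adjusted p = 0.00272), and lowered Lin28a (-0.68 ± 0.08) and Sall4 (-0.28 ± 0.06), with 6.96% called. Fgf raised Utf1 (0.45 ± 0.11) and Lin28a (0.37 ± 0.08) and lowered Nanog (-0.65 ± 0.11, edgeR adjusted p = 9.64e-07) and Sox2 (-0.36 ± 0.08, 0.000438), with 13.6% called. Counted per cell, the Sox2 effect was -0.16 (adjusted p = 0.16), and the median Fgf effect of the 9 went from -0.03 to 0.17 while that of all genes became 0.19. With library-total scaling, 19.2% of the genes called for Wnt were higher, against 48.3% with TMM, and all 9 were lower. Wells of 1 treatment differed between their duplicates by a median of 0.205 on the log2 scale for Pou5f1 over 32 pairs and by 0.363 for Nanog.

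The effects of Fgf, RA and Wnt depended on the start for some of the genes, by the test of the difference itself (mesendoderm less undirected). For Fgf, where 1.47% of genes were called and 0.535% were lower, the difference was -0.72 ± 0.13 for L1td1 (edgeR adjusted p = 0.000287), -0.45 ± 0.09 for Pou5f1 (0.00121), -0.68 ± 0.16 for Utf1 (0.00677) and -0.53 ± 0.12 for Dppa4 (0.00858). In treated undirected wells Utf1 lay at 88.6, 239 and 671 CPM with Fgf plus and at 22.7, 106 and 474 with Fgf minus, and in mesendoderm wells at 55.7, 141 and 330 and at 5.22, 97.1 and 316. All of these ranges overlap. The RA effect was smaller in size after the mesendoderm start for Pou5f1 (0.37 ± 0.09, edgeR adjusted p = 0.00491; 5.68% called) and Utf1 (0.63 ± 0.16, 0.00445). With limma the Utf1 difference was 0.38 (adjusted p = 0.305). Without cells of more than 2 times the median UMIs, 5 of these 8 differences by start were called, and those of Utf1 and Dppa4 for Fgf were among the lost. Counted per cell, the Pou5f1 difference for Fgf was -0.29 (adjusted p = 0.0961) and that of Dppa4 -0.40 (0.0746). Of all genes called for the Fgf difference, 63.6% were higher, and per cell 98.4%, with a median over all genes of 0.14.

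The Wnt effect on Nanog differed between the starts, with fitted effects of opposite sign. In undirected wells it lay at 8.24, 82.7 and 194 CPM with Wnt plus and at 13, 65.3 and 131 with Wnt minus, and in mesendoderm wells at 14.7, 65.4 and 228 and at 33.8, 86.4 and 203. The wells overlap broadly within each start. The fitted effects were 0.35 ± 0.14 (edgeR adjusted p = 0.0343) and -0.56 ± 0.11 (4.7e-06), and the difference was -0.91 ± 0.18 (8.47e-05; 7.77% called). The undirected rise was not called under library-total scaling (0.21, adjusted p = 0.207), per cell (0.33, 0.0634) or with wells of 10 or more cells (0.30, 0.109). Undirected wells held a median of 14 cells with Wnt plus and 30.5 with Wnt minus, and the part of this in the result was not tested. Dppa2 had a difference for Wnt near the threshold (-0.47 ± 0.16, edgeR adjusted p = 0.0498), lost in 3 alternatives. Tgfb and Bmp gave 0 called differences among the 9, where edgeR called 0% and 0.193% of genes.

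Genes of the naive network also differed by start in their Wnt effect. Of 14 tested, 9 rose and 1 fell in undirected wells (median log2 effect 0.42), led by Tfcp2l1 (1.46 ± 0.13) and Tdh (1.45 ± 0.12), with Fbxo15 at -0.38. In mesendoderm wells 6 fell and 1 rose (median -0.17), with Fbxo15 at -1.04, Klf2 at -0.82 and Zfp42 at -0.65 against Klf5 at 1.03. The difference by start was called lower for 10 and higher for 1 of the 14 (median -0.89). The direction of these 3 medians held under each scaling tried, and with library-total scaling the undirected count was 6 higher and 2 lower. Primed genes fell with Wnt from both starts, 9 of 10 in undirected wells (median -1.37) and 7 of 10 in mesendoderm wells (median -0.58). Pou3f1 was at -3.81 and Otx2 at -3.02 in undirected wells, and Lef1, a Wnt target, rose by 1.47. Over all genes, edgeR called 36.1% for Wnt in undirected wells, 41.1% in mesendoderm wells and 7.77% for the difference by start.

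Averaged over the treatments, the mesendoderm start left 6 of the 9 lower than the undirected start and Sall4 higher (25.6% of genes called). Sall4 was not called with library-total scaling or per cell, where 6 were lower and none higher. With limma L1td1 and Dppa2 were not called (adjusted p = 0.181 and 0.0741). L1td1 was also lost without cells of more than 2 times the median UMIs (edgeR adjusted p = 0.0994). Dppa2 was lost with wells of 10 or more cells (edgeR adjusted p = 0.0574) and without the filter (0.0609). Utf1 (-0.46 ± 0.08, edgeR adjusted p = 3.16e-06) and Dppa4 (-0.35 ± 0.07, 7.1e-06) led, and Nanog, higher in the control wells, was at 0.15 (0.24). Among pairs in the mixed wells, RA and Wnt interacted in undirected wells for Utf1 (0.93 ± 0.20, edgeR adjusted p = 0.00146; 3.38% of 9405 genes called) and Pou5f1 (0.53 ± 0.12, 0.00168). As in the germ layer conditions, Utf1 was highest with both minus, at 139, 450 and 671 CPM against 29.3, 109 and 241 with both plus, with overlap. In mesendoderm wells Tgfb and Bmp interacted for Sox2 (0.72 ± 0.14, 0.00342; 0.287% called) and RA and Wnt for Sall4 (-0.40 ± 0.11, 0.0177; 2.5% called). Tgfb and Bmp interacted for Pou5f1 in undirected wells (0.48 ± 0.11, edgeR adjusted p = 0.0405; 0.138% called), a call lost in 4 alternatives (adjusted p from 0.0648 to 0.114). The Sall4 call was lost in 3 (adjusted p from 0.0725 to 0.33) and went to -0.23 per cell, and that of Sox2 in 2 (0.0589 per cell and 0.0685 with limma). Pou5f1, Utf1, L1td1 and Dppa4 had their highest undirected mean under the same treatment, RA minus, Wnt minus, Tgfb plus, Bmp plus and Fgf plus. Its 2 wells had Pou5f1 at 855 and 753 and Utf1 at 671 and 605. The germ layer condition of the same levels was also the highest for Pou5f1.

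The undirected wells repeat the 5 pathways of the germ layer experiment, so the effects were compared in a joint fit of 8503 genes, an alternative chosen after seeing the data. The experiments cannot be told apart from whatever else differed between them, agents included. Sox2 differed for 3 pathways: its RA effect was lower in the mixed wells by 0.93 ± 0.16 (edgeR adjusted p = 1.74e-05; 11.1% called), and its Bmp and Wnt effects were higher by 0.81 ± 0.16 (0.000204; 12% called, 5.56% higher) and 0.58 ± 0.16 (0.00919; 9.47% called). Sox2 with RA and Bmp plus lay at 47, 128 and 266 CPM in 14 mixed wells, with RA alone plus at 117, 180 and 268, and with neither at 135, 296 and 384, which all overlap. The RA and Bmp interaction called in the germ layer was -0.07 here (edgeR adjusted p = 0.953). Pou5f1 fell less with RA in the mixed wells (0.56 ± 0.11, edgeR adjusted p = 0.000248). Nanog rose less with Tgfb (-1.20 ± 0.24, 0.00281; 0.106% called) and differed for Wnt (0.84 ± 0.23, 0.00861), and Dppa2 and Sall4 differed for Bmp (0.76 ± 0.20, 0.00515, and 0.43 ± 0.11, 0.00378). With limma the 2 differences of Nanog and that of Dppa2 were not called (adjusted p = 0.999, 0.108 and 0.185). For Fgf no difference of the 9 was called, with 0.294% of genes called.

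Single cells were compared after thinning each to 5000 UMIs. Pou5f1 had at least 1 UMI in 54.4% of germ layer cells, 25.4% of mesendoderm cells and 72.5% of mixed cells, and Nanog in 14.8%, 8.05% and 28.4%. Without thinning, Pou5f1 was in 78.2% of germ layer cells. Free RNA in droplets adds to such shares, and no cell type that lacks these genes was at hand to measure it. A cell held UMIs of 2.53 of the 9 genes on average in germ layer conditions, 1.52 in mesendoderm wells and 3.34 in mixed wells, and 7.67%, 22.8% and 5.40% of cells held none. Undirected control cells averaged 4.78 of the 9, treated undirected cells 3.54 and treated mesendoderm cells 2.95. Germ layer cells averaged 2.3 under RA plus and 2.87 under RA minus. These are descriptions of pooled cells, with no test.

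The spread between cells of 1 population differed among the genes. The ratio of variance to mean of the thinned counts within germ layer conditions was highest for Nanog and Utf1, both at 1.63, with Sox2 at 1.54 and Pou5f1 at 1.53, and lowest for Sall4 at 1.2 and Lin28a at 1.18, where Poisson counting noise gives a ratio of 1. In the mixed wells it ran from 1.97 for Sox2 to 1.13 for Lin28a, and in the mesendoderm wells from 2.0 for Sox2 to 1.12 for Sall4 and Dppa4. Co-variation was taken on log2(thinned count + 1), as deviations from the mean of the well or condition. Over 4869 mixed cells the correlations were 0.31 for Sox2 and Nanog, 0.27 for Pou5f1 and Utf1 and 0.26 for Pou5f1 and Sox2. Over 4185 germ layer cells the same pairs had 0.11, 0.16 and 0.09. These are weak correlations of sparse counts from cells that share wells and droplets.

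By Pearson r of log2 levels over the 32 germ layer conditions, among 7458 genes, the genes most like Pou5f1 were Terf1 (0.92), Plekhf2 (0.88) and Cth (0.87). Those least like it were Stox2 (-0.90), Mdk (-0.88) and Grb10 (-0.87). Over 62 treated undirected wells Terf1 had 0.45 and Mdk -0.74. Sox2 was most like Lpar6 (0.87, and 0.13 over the undirected wells) and Nanog most like Chst15 (0.80, and 0.25). Etv5, a transcription factor gene that Fgf signalling induces, was among the 3 most like Utf1 (0.87, and 0.66 over the undirected wells), L1td1 (0.86, and 0.65), Dppa4 (0.83, and 0.35) and Dppa2 (0.73, and -0.02). Lin28a was most like Ank2 (0.71, and 0.21) and Sall4 most like Timm17a (0.83, and 0.17). In the undirected wells the likeness was weaker for each of these genes. All these points share conditions and depth, and likeness of levels says nothing of shared control.

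In the bulk libraries, transfection of barcodelets was compared first. None of the 9 genes was called at 24 h or 72 h against untransfected cells, with 0.0344% and 0.0258% of 11631 genes called, or between the times, with 0% called. At an unadjusted p under 0.05, edgeR had 305, 626 and 369 genes over the whole table, and DESeq2 also called none of the 9. The fitted changes of the 9 at 24 h ran from -0.56 (Dppa2) to 0.23 (Pou5f1). Against untransfected cells, the median of the 9 was -0.25 at 24 h and -0.32 at 72 h, where that of all genes was -0.0056 and 0.0011. Lin28a had 56.0 and 45.8 RPM in the untransfected libraries, 53.6 and 47.6 at 24 h and 36.8 and 37.5 at 72 h. Its 72 h libraries were the lowest, and the change from untransfected cells was -0.35 (edgeR adjusted p = 0.935).

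Sorted cells differed much more. Utf1 had 9.52, 11.2 and 9.03 RPM in the 3 Foxa2GFPplus samples, 48.9 and 85.0 in Foxa2GFPminus and 112 and 103 in Tdgf1GFPplus. Sox2 had 75.3, 97.2 and 104 in Foxa2GFPplus, 218 and 245 in Foxa2GFPminus and 365 and 336 in Tdgf1GFPplus. For both genes the Foxa2GFPplus libraries lay below all the others. RPM is scaled to the read total alone and the fitted effects by TMM, so ratios of RPM can differ from the effects. Against Foxa2GFPminus, 5 of the 9 were lower (2.39% of 13654 genes called, 1.52% lower): Utf1 (-3.34 ± 0.34, edgeR adjusted p = 0.000692), Sox2 (-1.90 ± 0.26, 0.00409), L1td1 (-1.91 ± 0.29, 0.00664), Dppa2 (-3.13 ± 0.53, 0.012) and Dppa4 (-2.53 ± 0.48, 0.022). Without the second Foxa2GFPminus library Dppa2, Dppa4, Sox2 and L1td1 were no longer called against Foxa2GFPminus, at -2.43, -2.50, -1.70 and -1.81. Dppa4 and L1td1 were also lost without the first Foxa2GFPminus library, at -2.53 and -1.97. The Dppa4 call was lost as well without the Foxa2GFPplus replicate numbered 3 (-2.28, edgeR adjusted p = 0.0555). It was lost too on leaving out either Tdgf1GFPplus library, at -2.52 each time.

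Lin28a and Sall4 did not follow. Lin28a had 128, 169 and 157 RPM in Foxa2GFPplus, above 75.7 and 74.4 in Foxa2GFPminus and 80.5 and 48.5 in Tdgf1GFPplus, and was not called (0.45, edgeR adjusted p = 0.35, and 0.72, 0.101). Sall4 had 111, 222 and 259 against 85.0 and 128 in Foxa2GFPminus, which overlap. Nanog had 12.9, 35.4 and 38.9 in Foxa2GFPplus, 33.0 and 71.2 in Foxa2GFPminus and 115 and 113 in Tdgf1GFPplus. It was called only against Tdgf1GFPplus (-2.58 ± 0.41, edgeR adjusted p = 0.00462), as was Pou5f1 (-1.98 ± 0.54, 0.0412); against Foxa2GFPminus they gave -1.49 (0.082) and -1.38 (0.204). Against Tdgf1GFPplus 7 of the 9 were lower (10.2% of genes called, 5.43% lower), with Dppa2 at -4.83 ± 0.53. Both comparisons share the Foxa2GFPplus libraries. The median over the 9 was -1.90 and -2.58, and over all genes 0.06 and 0.08. Between Tdgf1GFPplus and Foxa2GFPminus edgeR called 0% of genes, with 1321 at an unadjusted p under 0.05.

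Pou5f1 had only 4.75 to 7.68 RPM in Foxa2GFPplus and 9.29 to 21.5 in the other sorted libraries, and its call against Tdgf1GFPplus was lost under library-total scaling (edgeR adjusted p = 0.078) and on leaving out any 1 of 6 of the 7 sorted libraries, all but the first Foxa2GFPplus (edgeR adjusted p from 0.0587 to 0.424, the last at -1.02 without the second Tdgf1GFPplus library). The Nanog call against Tdgf1GFPplus was also lost without that library (-2.38, edgeR adjusted p = 0.0531). No source used here says how reads that match several places were counted. In the comparison with Foxa2GFPminus, Foxa2, the gene whose reporter was sorted on, rose by 4.88 ± 0.72 (edgeR adjusted p = 0.0058). Of 6 endoderm markers 2 rose, and Foxa2 itself was 1 of these. In the same comparison 11 of 15 genes of the naive network fell (median -3.17), where 2.39% of all genes were called. Of the 15 other pluripotency genes 4 fell, Dnmt3l, Gdf3 and Mybl2 among them (-3.59, -3.09 and -2.94), and none of 10 primed genes was called. Between 2.63% and 42.6% of the reads of a library fell on Gm42418, and read totals ran from 2899646 to 14874469. Foxa2GFPplus libraries had 5988930 to 14874469 reads, and the other sorted libraries 2906282 to 5211600. Gm42418 took 15.7% to 26.9% of the reads in Foxa2GFPplus and 24.6% to 42.6% in the other sorted libraries. Depth thus went with the sorted group, and its part in these levels was not tested. Without the reads of Gm42418, all 12 calls of the sorted comparisons were kept.

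**Figure D5:**
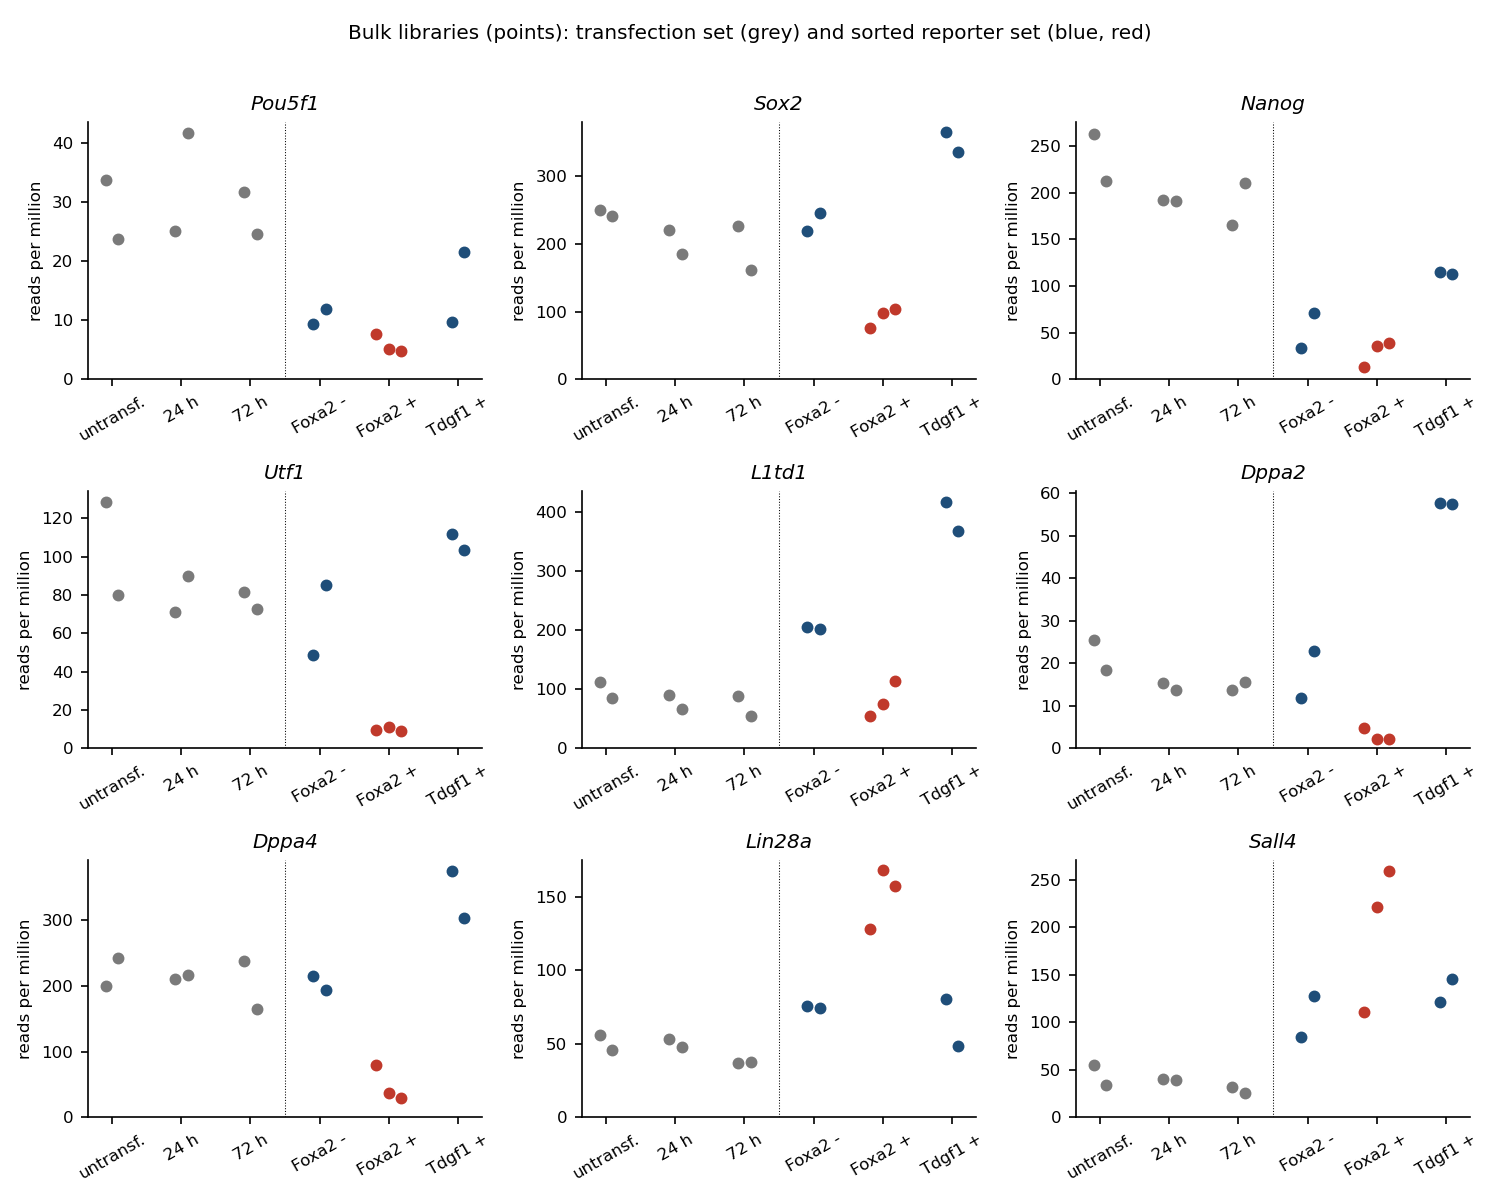
Level in RPM of the 9 genes in each of the 13 bulk libraries (linear axis from 0), with the transfection set in grey, Foxa2GFPminus and Tdgf1GFPplus in blue and Foxa2GFPplus in red. Utf1 in the 3 Foxa2GFPplus libraries lies between 9.03 and 11.2, below every other library, while Lin28a lies above the other sorted libraries.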

How the data were processed

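The authors deposited raw UMI counts per gene and cell, raw bulk read counts per gene, and for each cell its assigned population with the fraction of its barcodelet counts taken by the most abundant barcodelets. Per the submitters' processing notes, Cell Ranger 1.3.1, STAR 2.5.2b, HTSeq 0.9.1 and build mm10 were used, with no role given. Only cells that passed the deposited assignment were used; no doublet caller was run. UMI counts were summed per condition (germ layer) or well (mesendoderm and mixed, at least 5 cells). Each table was fitted whole with edgeR 4.0.16 in R 4.3.3 (TMM scaling, filterByExpr, quasi-likelihood test, 2-sided, Benjamini-Hochberg), with pathways coded 0.5 and -0.5 and pairs as products. Each germ layer condition was 1 population, so its error came from the residuals of the additive model. Bulk sets (transfection, sorted) were fitted apart. The replicate of Foxa2GFPplus numbered 2 was not analysed here. Levels are CPM (UMIs relative to the TMM-scaled total) or, in bulk, RPM (reads relative to the read total).

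The 9 genes and the gene lists were chosen with earlier results of these data known. Of each list, the members with the smallest adjusted p are named, and beside each of the 9 genes the 3 with the highest r of log2(level + 5), among genes with a mean level of at least 10. Alternatives were limma 3.58.1, DESeq2 1.42.0, other scalings, no filter, at least 10 cells, no cells over 2 times the median UMIs and left-out libraries. The fits were tested on simulated data. Gene positions are from GENCODE on GRCm38, and promoter sequences from RefSeq (GRCm38.p6).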

Additional observations from a re-analysis of the deposited data

Results flagged for a closer look

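Among 18 groups of 8 control wells examined, 1 value stood apart from its group: the highest mesendoderm control well for Sox2, at 378 CPM with the next at 326. Chance flags about 1 in 20 such groups.

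The effects of 3 pathways differed by start in the mixed experiment (mesendoderm less undirected, edgeR adjusted p under 0.05). For Fgf the differences were -0.45 for Pou5f1, -0.68 for Utf1, -0.72 for L1td1 and -0.53 for Dppa4. For RA they were 0.37 for Pou5f1 and 0.63 for Utf1, and for Wnt -0.91 for Nanog and -0.47 for Dppa2.

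Effects also differed between the mixed undirected wells and the germ layer conditions (mixed less germ layer, a comparison chosen after seeing the data). They were 0.81 for Sox2, 0.76 for Dppa2 and 0.43 for Sall4 with Bmp, 0.56 for Pou5f1 and -0.93 for Sox2 with RA, -1.20 for Nanog with Tgfb, and 0.58 for Sox2 and 0.84 for Nanog with Wnt.

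Cells without an assignment, which enter no comparison, also held RNA of the 9 genes. Their summed level was 954 CPM in 4071 germ layer cells, 434 in 9882 mesendoderm cells and 1484 in 1075 mixed cells, against 802, 410.5 and 1275 in the assigned cells of the same experiments.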

How the results depend on the processing

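No called effect of the 9 genes changed sign under any alternative run. Of the calls compared, 149 of 167 single-cell calls held with limma, which was not run on the bulk libraries, 179 of 179 with DESeq2's size factors, 172 of 179 with library-total scaling, 151 of 167 per cell, 151 of 159 with at least 10 cells and 176 of 179 without a filter.

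Counts of calls moved by more than 1.5 times as follows. Mesendoderm pathway effects went from 10 to 20 without the filter, 19 with pairwise products and 19 with wells of 1 treatment summed (chosen after seeing the data), since more of the 9 genes were then tested. Mesendoderm pairs went from 2 to 0 with at least 10 cells, 1 without cells over 2 times the median UMIs and 6 without the filter. Differences by start went from 8 to 5 without those cells and 13 without the filter, and mixed pairs from 5 to 3, 21 and, per cell, 2. The comparison with the germ layer went from 8 to 5 with limma and 13 without the filter. Where no construction shows it, the cause was not tested.

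Sorted libraries gave 12 calls, and 7 to 16 with 1 library left out (7 without the second Foxa2GFPminus library). Deviations of same-numbered libraries correlated at -0.157 to 0.109, so no pairing by replicate number was seen. Groups of 2 libraries cannot show that same-numbered libraries were unpaired, and Foxa2GFPplus was not in this check. With the replicate block, Tdgf1GFPplus against Foxa2GFPminus gave 1 call and transfection 0. Cells thinned to 3000 and 10000 UMIs averaged 1.78 and 3.75 of the 9 genes (germ layer), 0.998 and 2.51 (mesendoderm) and 2.44 and 4.72 (mixed).

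Depth limits the mesendoderm wells most, where 5 of the 9 genes fell under the filter.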

Other observations

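Genes that let-7 microRNAs target, which Lin28a keeps active by blocking let-7, were followed as a list of 8. With RA in the germ layer conditions, where Lin28a fell by 0.26, 4 of the 8 were higher and 2 lower (27.7% of all genes called). Hmga2 was at 0.79 and Igf2bp2 at 0.69. With Tgfb, where Lin28a fell by 0.50, 3 were lower and none higher (7.02% of all genes called). Igf2bp2 was at -0.45, Trim71 at -0.35 and Hmga2 at -0.33. In the sorted Foxa2GFPplus libraries none of the 8 was called against Foxa2GFPminus, with a median of 0.34, where 2.39% of all genes were called. The part of Lin28a in these changes was not tested. Of 10 genes that Dppa2 and Dppa4 activate in ES cells, 2 passed the filter on low counts in the germ layer conditions.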
